A study of Mus musculus with 58 samples.

Results

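The genes described are those of the cytoplasmic ribosomal proteins of the mouse, in 34 single long-term haematopoietic stem cells (LT-HSC) and 24 single common myeloid progenitors (CMP). A gene belonged to the set if its symbol was Rps or Rpl with a number and an optional a, x, y or l ending, or was Rplp0, Rplp1, Rplp2 or Rpsa, and if it had at least 20 counts over the 58 cells. Of 23152 symbols in the table, 85 matched and 79 passed the minimum, 32 of the small and 47 of the large subunit. They held 4200795 of 16993868 counts. The 6 symbols below the minimum were Rpl10l, Rpl26 and Rpl39l, each without a count, Rpl30 with 4, Rpl34 with 6 and Rps27 with 15. Just inside it stood Rpl3l with 20 counts, followed by Rps4l with 895.

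All cells came from bone marrow of wild-type C57BL/6 mice and were sorted singly by surface markers. The LT-HSC gate took cells that lacked lineage markers, Flt3 and CD34 and carried Kit and Sca-1, and the CMP gate took cells that lacked lineage markers, Sca-1 and CD16/32 and carried Kit and CD34. A label gives 8 to 10 passages for every cell, and its meaning for sorted cells is not stated. No label names an animal, so each gate was 1 sample: no test was made, cells are not replicates, and the 95% intervals cover only counting error.

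Ribosomal proteins clothe the ribosomal RNA of the small subunit, which reads the messenger RNA, and of the large subunit, which joins the amino acids. Each protein is needed in a fixed ratio to the others, and their messenger RNAs mostly begin with a run of pyrimidines, the terminal oligopyrimidine (TOP) motif, through which mTOR and Larp1 adjust their translation. Blood formation is sensitive to their dose: mutation of several of these genes causes Diamond-Blackfan anaemia, a failure of red cell production, and adult blood stem cells are known for a low rate of protein synthesis.

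Summed over cells, all 8 LT-HSC markers were at least 2-fold higher in the LT-HSC. All 7 CMP markers with at least 20 counts were at least 2-fold lower. Of all genes with at least 20 counts, 22.7% were at least 2-fold higher and 28.1% at least 2-fold lower. Single cells overlapped. LT-HSC 31 had LT-HSC markers at 0.0060% of its counts and CMP markers at 0.120%. CMP 14 had LT-HSC markers at 0.054%, and CMP 6 had CMP markers at 0.050%. A cell held 45022 to 860553 counts. Xist, expressed from the inactive X chromosome of female cells, had no count in any LT-HSC or in CMP 1 and 2, while the other 22 CMP had it, so donor sex and gate were nearly the same split and cannot be told apart. LT-HSC 1 to 16 and LT-HSC 17 to 34 also differed, in a cut by cell number that no label gives and that was made after values were seen. Values are therefore also given for these blocks, and for the LT-HSC against CMP 1 and 2, called the comparison without Xist. Of markers of other cells, Cd3e, Cd3d, Cd3g, Ms4a1 and Adgre1 had no count in any cell. Others were counted in both gates, which held 9931131 counts in the LT-HSC and 7062737 in the CMP. In this order, Nkg7 had 3465 and 3014 counts, Cd79b 802 and 333, Csf1r 2 and 147 and S100a8 1542 and 3063. Cpa3 had 102 and 1762 and Pf4 416 and 7079. Scaled to these totals, 1 of 9 mature neutrophil markers was at least 2-fold higher in the LT-HSC and 4 at least 2-fold lower. Nkg7 also differed between the LT-HSC blocks, with a log2 ratio of LT-HSC 1 to 16 to LT-HSC 17 to 34 of −7.73. The part of these markers in the results was not tested.

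Ribosomal protein RNA was a large part of each cell's counts, somewhat larger in the LT-HSC than in the CMP. The share of all counts was 20.1%, 26.03% and 33.7% in the lowest, median and highest LT-HSC, and 18.2%, 22.2% and 29.3% in the CMP. The gates overlapped: 23 of 34 LT-HSC and 6 of 24 CMP lay above the median of all cells, 24.4%. Summed over cells, the share was 25.78% in the LT-HSC (interval 25.75 to 25.81) and 23.23% in the CMP (interval 23.20 to 23.26), a 1.11-fold ratio.

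That difference did not run through the whole of either gate. LT-HSC 1 to 16 held 25.6%, 28.4% and 33.7% as lowest, median and highest, and LT-HSC 17 to 34 held 20.1%, 23.6% and 29.1%. Each of the 16 cells of the first block lay above each of the 22 CMP with Xist, whose shares were 18.2%, 22.1% and 24.7%. The later LT-HSC overlapped those CMP, and CMP 1 and CMP 2, at 27.8% and 29.3%, lay among the first block. As log2 ratios of the summed share to the whole CMP pool, the first block stood at 0.35 and the later block at 0.036. Against CMP 1 and 2 alone the LT-HSC ratio turned to −0.14. A higher share of ribosomal protein RNA and a lower amount of other RNA cannot be told apart from shares of a total.

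**Figure D1:**
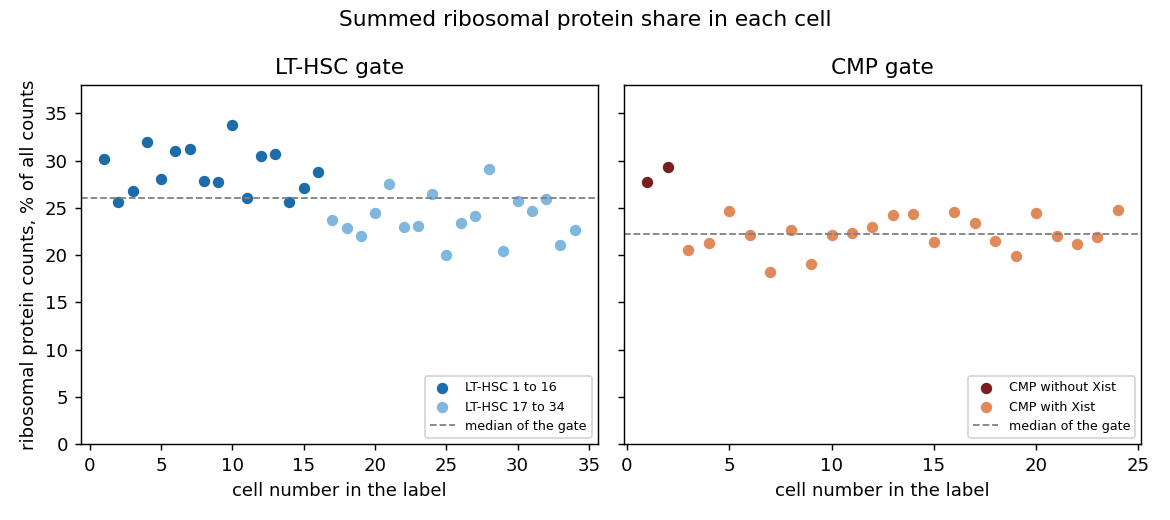
Ribosomal protein counts as a percentage of all counts in each cell (y axis) by the cell number of its label (x axis), with LT-HSC on the left and CMP on the right. Points are cells and dashed lines the medians of the gates (26.03% and 22.2%); LT-HSC 1 to 16 and CMP 1 and 2 lie high.

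The blocks also differed in other measures, whose part in the share was not tested. Rn45s, the ribosomal RNA precursor, took a median of 2.42% of counts in the first block, 1.15% in the later block, 2.93% in CMP 1 and 2 and 1.17% in the other CMP. The 8 cycling markers took 0.529 of 10000 counts in the median cell of the first block and 0.488 in that of the later one, but up to 4.33 in the first and 26.9 in the later block. Total counts had a median of 211044 in the first block and 306454 in the later block. Within LT-HSC 1 to 16, cells with more counts had higher ribosomal protein shares (Pearson's r 0.661, Spearman's rho 0.603 over 16 cells), and within the later block r was −0.056 over 18 cells.

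Small and large subunit genes moved together from cell to cell. The share of counts from the 32 small subunit genes followed that of the 47 large subunit genes with r 0.788 and rho 0.865 in the first block of LT-HSC, 0.724 and 0.822 in the later block, and 0.899 and 0.906 in the 22 CMP with Xist. These are shares of 1 total in the same cells, so they also share its error. Counts of small subunit genes per count of large subunit genes were 0.608, 0.699 and 0.890 in the lowest, median and highest LT-HSC and 0.629, 0.720 and 0.773 in the CMP. The highest ratio was that of LT-HSC 24, followed by LT-HSC 20 at 0.806, and no CMP reached either. Summed over cells, the ratio was 0.701 in the LT-HSC and 0.731 in the CMP.

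Nearly all members were counted in every cell. A count was found in all 58 cells for 76 of the 79 members, and the same number had at least 10000 counts. Among the most counted were Rpl13 with 155364 counts, Rpl41 with 117373, Rps19 with 102838 and Rps7 with 94138. The libraries read the 3' end of each messenger RNA, so counts are not divided by length, and an order of genes by count also follows how well each end was captured and mapped.

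Most members with a known promoter have a run of pyrimidines close to their annotated start, before or after it, and the windows shown are those of 4 members that were low in the LT-HSC relative to the other ribosomal proteins and of 4 that were high. RefSeq promoters of GRCm38.p6, from 250 bases before to 50 after the annotated start, were found for 59 members. A run of at least 8 bases of only C or T within 50 bases either side of the start, on the strand of the gene, was present in 49 of these (83.1%) and in 39.3% of 27025 genes. Runs of A or G, the same search on the other strand, were present in 27.1% of members and 41.1% of genes. The letters below run 5′ to 3′ on the strand of the gene, with the longest C or T run in capitals, and the first 4 belong to the low members.
Rpl12: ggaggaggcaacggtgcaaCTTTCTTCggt
Rpl39: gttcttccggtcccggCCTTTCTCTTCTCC
Rps24: gagcggTCCTCTTTTCCTCCTCTCCagctc
Rps12: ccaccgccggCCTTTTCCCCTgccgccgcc
Rpl10a: aagcgctctgCCTTCTTTCCggtttccgcg
Rps7: ctgtccccaCCTCTTTTCTTCCgccacccg
Rpl15: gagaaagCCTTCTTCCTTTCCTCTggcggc
Rps6: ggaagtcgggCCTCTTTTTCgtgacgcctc

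These windows lie at chr2:32961732-32961761 on the plus strand for Rpl12, chrX:37085173-37085202 on the minus strand for Rpl39, chr14:24490710-24490739 on the plus strand for Rps24 and chr10:23787182-23787211 on the minus strand for Rps12. Those of the high members lie at chr17:28328572-28328601 on the plus strand for Rpl10a, chr12:28635911-28635940 on the minus strand for Rps7, chr14:18270968-18270997 on the minus strand for Rpl15 and chr4:86857349-86857378 on the minus strand for Rps6. Where RefSeq gives several starts, the one with the longest run was taken, and the run of Rpl39 reached the end of the stored stretch. The run of Rps24 lies before the start taken, and so outside the messenger RNA that begins there. Such runs stood at both ends of the range: 7 of the 8 lowest members had one, and so did all 6 of the 8 highest that had an entry. The letters CTTTCC on the strand of the gene were found near the start in 28.8% of members and 5.43% of genes, and CTCTTTC, which can overlap them, in 18.6% and 1.62%. A C as the first base followed by 4 pyrimidines, the classical TOP start, was found in 20.3% of members and 3.01% of genes. CTTCCG on either strand of the 300 bases was found in 66.1% of members and 18.8% of genes.

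Between the gates the members stayed close together. Their log2 ratios of CPM (counts scaled to a common total), LT-HSC to CMP, had a median of 0.086 and quartiles of −0.16 and 0.29, with 52 above 0 and 27 below. At least 2-fold higher in the LT-HSC was 1 of 79 members, Rps4l, and at least 2-fold lower was also 1, Rpl3l. All 20 counts of Rpl3l were in the CMP, so it met the minimum through the CMP alone and its direction follows from that. Of all 10937 genes with at least 20 counts, 22.7% were at least 2-fold higher and 28.1% at least 2-fold lower, with quartiles of −1.16 and 0.87. Ribosomal protein genes are deeply counted, so genes of like depth are given as well. Of the 176 other genes with at least 10000 counts, 7.95% were at least 2-fold higher and 3.41% at least 2-fold lower, and their quartiles were −0.27 and 0.29.

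The ratios of single members were then set against the ratio of their sum, log2 0.15, and the difference is called the departure. It describes the make-up of the ribosomal protein RNA and does not depend on other genes, but every member is part of the sum. A departure of at least 2-fold was found for 2 of 79 members, again Rps4l and Rpl3l. It was found for 51.5% of all genes with at least 20 counts and 13.1% of the 176 other deeply counted genes. Rps4l and Rpl3l, with 895 and 20 counts, are not of that depth, and the direction of Rpl3l follows from the minimum. Without Rps4l and Rpl3l the departures of the other 77 ran from −0.92 for Rpl12 to 0.48 for Rpl10a. The 39 members outside the rule for named genes ran from −0.48 (Rpl7a) to 0.26 (Rpl21), with 14 above and 25 below 0, and held 20175 to 85099 counts each.

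**Figure D2:**
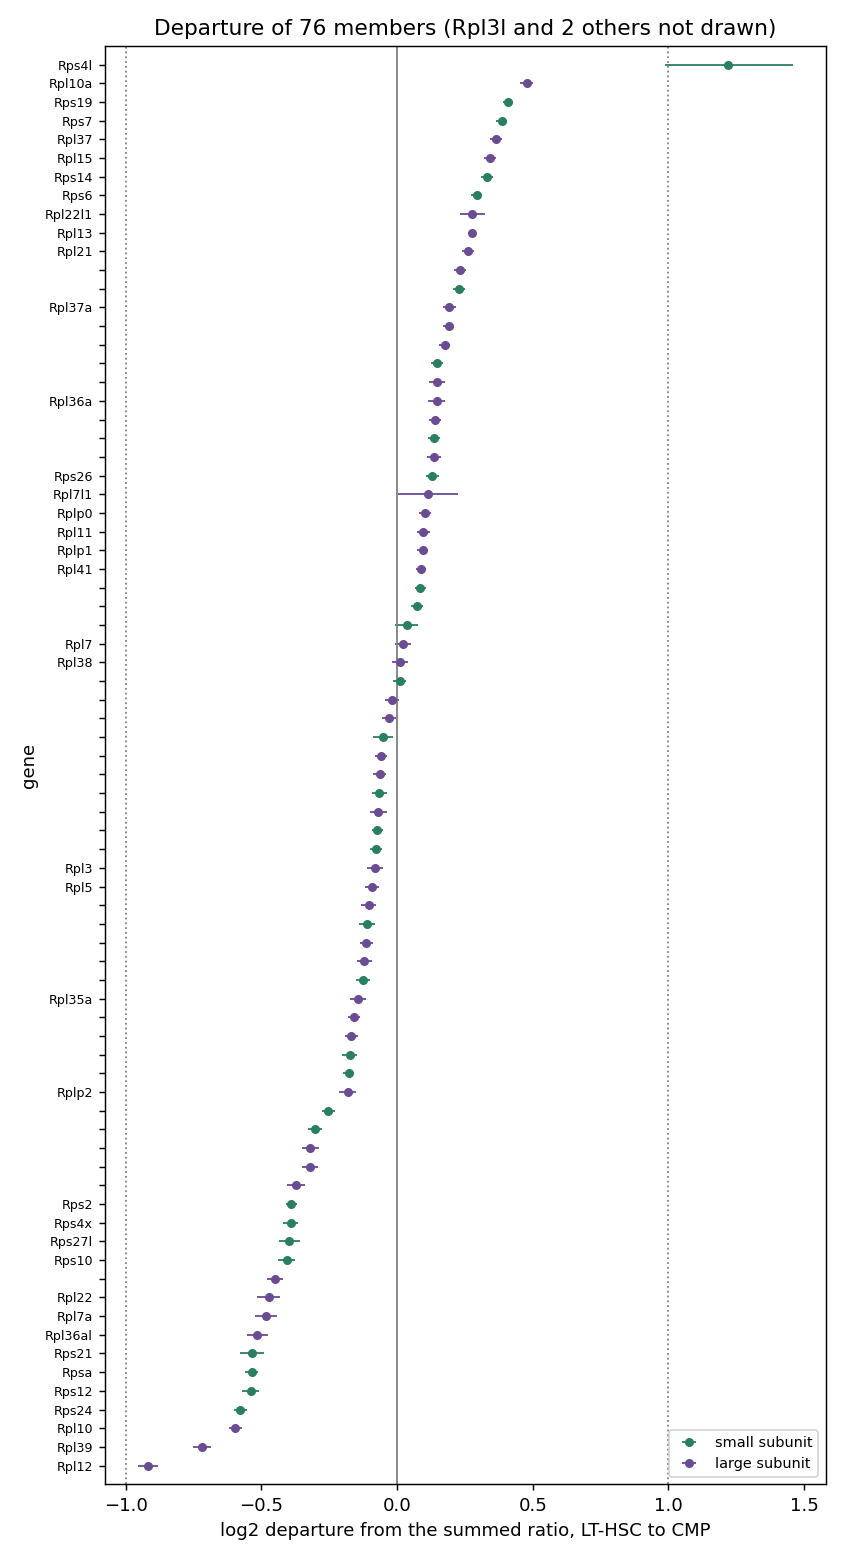
Departure of each member on the log2 scale (x axis), the LT-HSC to CMP ratio of the gene minus that of the summed ribosomal proteins, for 76 members (y axis); Rpl3l and 2 others are not drawn. Members named in the text are labelled, bars are 95% counting intervals, dotted lines mark 2-fold, and colours give the subunit; Rpl12 lies lowest at −0.92 and Rps4l highest at 1.22.

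Rpl12, Rpl39 and Rpl10 of the large subunit gave the lowest departures among members with at least 200 counts. Rpl12, at the base of the stalk that recruits translation factors, took 0.087%, 0.438% and 0.944% of the ribosomal protein counts in the lowest, median and highest LT-HSC and 0.458%, 0.773% and 1.33% in the CMP. The ranges overlapped, but 2 of 34 LT-HSC lay above the CMP median. Its pooled levels were 1172 CPM in the LT-HSC and 1997 CPM in the CMP, a departure of −0.92 (interval −0.95 to −0.88).

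Rpl39, a small protein at the exit of the peptide tunnel, took 0.183%, 0.521% and 1.02% in the LT-HSC and 0.452%, 0.858% and 1.31% in the CMP. Its departure was −0.72, and 3 of 34 LT-HSC lay above the CMP median. Rpl10, added late to the large subunit and needed before it can join the small one, took 0.191%, 1.10% and 1.84% in the LT-HSC and 1.12%, 1.63% and 2.27% in the CMP, a departure of −0.60. In both, most LT-HSC lay in the lower part of the CMP range or below it.

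Among small subunit genes Rps24 separated the gates most. Rps24, mutated in some Diamond-Blackfan anaemia, took 0.487%, 1.19% and 1.67% of the ribosomal protein counts in the LT-HSC and 1.27%, 1.76% and 1.98% in the CMP. Of the 34 LT-HSC, 0 lay above the CMP median, although the ranges overlapped. Its departure was −0.58 (interval −0.60 to −0.55), and pooled shares were 1.19% in the first block of LT-HSC, 1.17% in the later block, 1.79% in CMP 1 and 2 and 1.75% in the other CMP. Rps24 was thus nearly level across the blocks of each gate.

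The other members of the 8 lowest were Rps12 at −0.54, Rpsa at −0.54, Rps21 at −0.54 and Rpl36al at −0.52. Rpsa, also known as the laminin receptor precursor, took 0.302%, 0.923% and 1.72% in the LT-HSC and 1.09%, 1.44% and 2.19% in the CMP. The blocks of LT-HSC differed for some of these genes. Against CMP, Rps21 departed by −0.19 in the first block and −0.81 in the later block, while Rpl36al departed by −0.89 and −0.32.

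At the other end stood Rps19, Rps7, Rpl37, Rpl15, Rps14, Rps6 and Rpl10a, besides Rps4l. Rpl10a, the protein of the mobile L1 stalk, had the highest departure among the deeply counted members, 0.48 (interval 0.45 to 0.50), at 3972 CPM in the LT-HSC and 2571 CPM in the CMP. Its share was 0.186%, 1.55% and 2.80% in the LT-HSC and 0.643%, 1.12% and 1.53% in the CMP. LT-HSC were thus spread to both sides of the CMP, with 24 of 34 above their median.

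Rps19, the gene most often mutated in Diamond-Blackfan anaemia, took 1.65%, 2.74% and 3.54% in the LT-HSC and 1.74%, 2.03% and 2.87% in the CMP. Of the LT-HSC, 31 of 34 lay above the CMP median, and the departure was 0.41. Rps7 took 1.30%, 2.47% and 4.16% in the LT-HSC and 1.51%, 1.90% and 2.51% in the CMP, with a departure of 0.39 and 30 of 34 LT-HSC above the CMP median. Rps6, the substrate of the S6 kinases below mTOR, departed by 0.29, Rpl37 by 0.36, Rpl15 by 0.34 and Rps14, lost in the myelodysplastic syndrome with a deletion on human chromosome arm 5q, by 0.33.

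**Figure D3:**
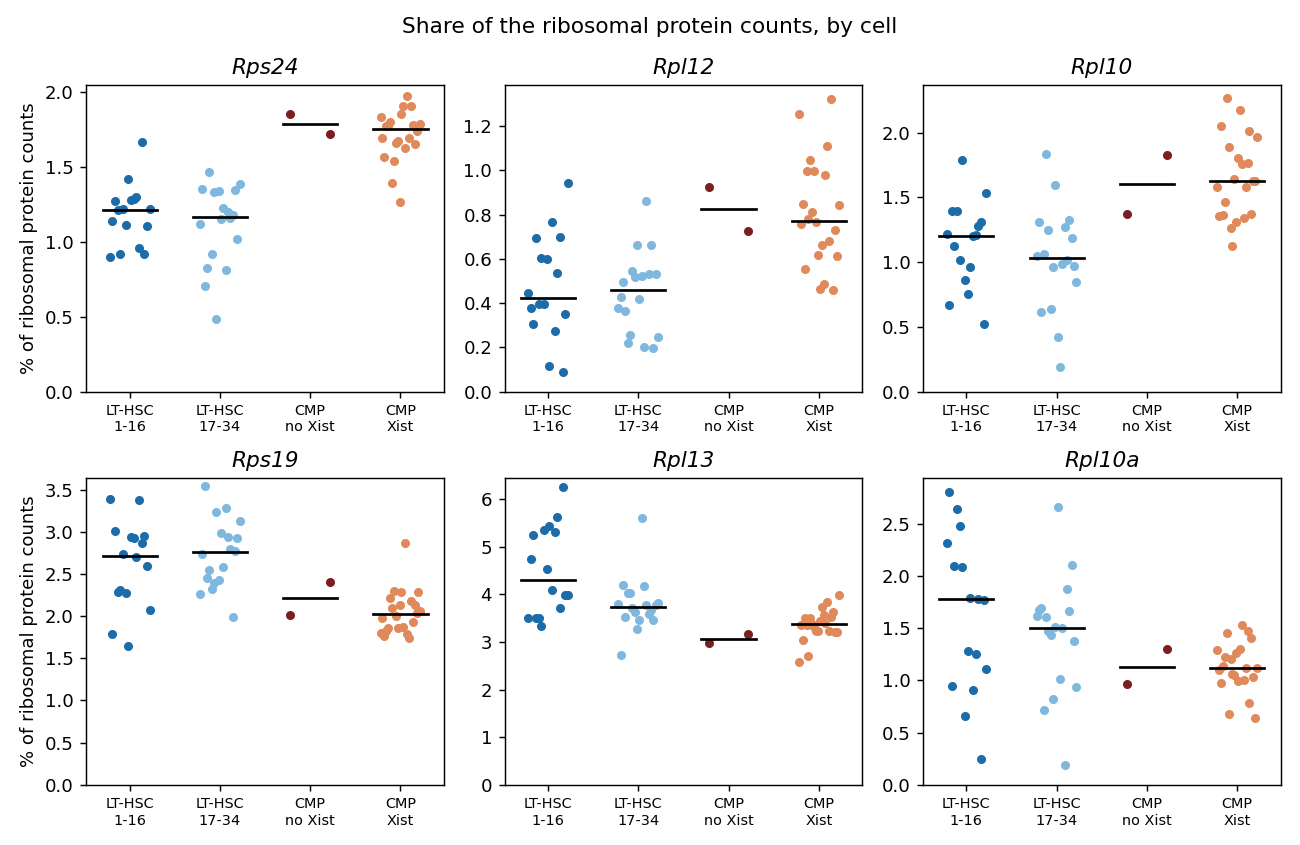
Share of the ribosomal protein counts taken by 6 genes (y axes, percent) in each cell of LT-HSC 1 to 16, LT-HSC 17 to 34, the 2 CMP without Xist and the 22 CMP with Xist (x axes). Points are cells and black bars the medians; Rps24, Rpl12 and Rpl10 lie lower in both LT-HSC blocks, and Rps19, Rpl13 and Rpl10a lie higher with wider spread.

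The direction of the 16 extreme members was followed into the blocks. In each LT-HSC block against the CMP pool, which both comparisons share, the 8 low members were below the sum and the 8 high members above it. They were chosen on pools that contain these cells, so this is a description. Of the 16, Rpl10 (100%), Rps12 (87.1%), Rpl10a (83.6%), Rps6 (79.1%), Rpl15 (74.6%), Rpl36al (62.7%) and Rps24 (27.4%) share that part of the 100-base stretches of their 3' end with other annotated genes, and their counts are uncertain to that extent. Rps14 moved most among the 8 high members other than Rps4l, at 0.60 in the first and 0.13 in the later block. Against CMP 1 and 2, Rpl12 departed by −0.87, Rpl39 by −0.73, Rpl10 by −0.54, Rps24 by −0.61, Rps19 by 0.30 and Rpl10a by 0.46.

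Position on the X chromosome accompanied some low departures. Of the 4 X-linked members, Rpl39 stood at −0.72, Rpl10 at −0.60, Rps4x at −0.39 and Rpl36a at 0.15. Against CMP 1 and 2, which have no Xist count either, Rps4x stood at −0.24 and Rpl36a at 0.11. Rpl12 and Rps24, as low as the X-linked genes, lie on chromosomes 2 and 14.

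The 10 members of a list of genes tied to Diamond-Blackfan anaemia or to loss on chromosome arm 5q did not move as a group. They were 5 above and 5 below the summed ratio, with a median departure of 0.0018 against −0.064 for all members. Rps19, Rps7 and Rps14 lay high and Rps24 low, as given above. Among the others, Rps26 departed by 0.13, Rpl11 by 0.097, Rpl5 by −0.093, Rpl35a by −0.14 and Rps10 by −0.41. Rpl5 and Rpl11, which bind Mdm2 when ribosome assembly fails, lay close to the sum in opposite directions.

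Over the whole gates, the stalk proteins, which recruit elongation factors, lay near the sum, but the LT-HSC blocks differed. Rplp0 departed by 0.10 and Rplp1 by 0.094, while Rplp2, their partner, departed by −0.18. For LT-HSC 1 to 16 against CMP the departures were 0.27, 0.31 and −0.31 in this order. For LT-HSC 17 to 34 against CMP they were −0.017, −0.066 and −0.10. Rplp2 took 0.257%, 0.784% and 1.38% in the LT-HSC and 0.521%, 0.899% and 1.10% in the CMP, so the gates overlapped. Rpl38, needed in the mouse embryo for translation of some Hox messenger RNAs, departed by 0.011.

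Some ribosomal proteins have a second gene, and the balance within some of these pairs differed between the gates beyond counting error. Rpl22l1, the paralog of Rpl22, gave 26.6%, 52.7% and 75.05% of the counts of the pair in the lowest, median and highest LT-HSC and 18.9%, 39.9% and 63.0% in the CMP. The gates overlapped, and Rpl22l1 outnumbered Rpl22 in 21 of 34 LT-HSC and 6 of 24 CMP. Pooled, it gave 54.0% in the LT-HSC (interval 53.3 to 54.7) and 41.1% in the CMP (interval 40.3 to 41.9), with Rpl22 departing by −0.47 and Rpl22l1 by 0.28. The LT-HSC blocks lay close together, at 54.9% and 53.3%, and CMP 1 and 2 together gave 43.8%. Of the 100-base stretches at the 3' end of Rpl22l1, 52.2% also occur in another annotated gene, so its counts are uncertain.

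Rpl36al, the paralog of X-linked Rpl36a, went the other way. It gave 9.65%, 32.8% and 85.0% of the counts of its pair in the LT-HSC and 19.01%, 45.5% and 60.5% in the CMP. Pooled values were 34.8% and 45.7%, and the LT-HSC blocks differed, at 29.2% in the first and 37.9% in the later one. Every 100-base stretch at the 3' end of Rpl36a also occurs in annotated transcripts of other genes, as do 62.7% of those of Rpl36al, so the counts of both are uncertain.

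Rpl7l1 gave 6.73% of the counts of its pair with Rpl7 in the LT-HSC (interval 6.43 to 7.03) and 6.34% in the CMP (interval 5.98 to 6.72), which overlap. The LT-HSC ranged from none to 65.7%, the latter in LT-HSC 26, while no CMP passed 16.1%. Rps27l, a p53 target, stood at 1175 CPM in the LT-HSC and 1394 CPM in the CMP, with a departure of −0.40. Its partner Rps27 was nearly without counts, and so were Rpl10l beside Rpl10 and Rpl39l beside Rpl39, so no balance is given for them. Rpl3l, the muscle form of Rpl3, had no count in the LT-HSC, at least 9.37-fold lower than in the CMP by a floor of 3 counts over the pool, but 19 of its 20 counts came from CMP 3, without which the log2 ratio moved from −5.85 to −2.18. Rpl3 itself departed by −0.082.

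Rps4l, the member with the highest departure, was counted in some cells only. GENCODE annotates Rps4l as a transcribed processed pseudogene at chr6:148354656-148355598 on the plus strand, a copy of X-linked Rps4x. It had 702 counts in the LT-HSC (70.7 CPM) and 193 in the CMP (27.3 CPM), a log2 ratio of 1.37. Most cells had few or none: 14 LT-HSC and 11 CMP had no count, and 9 LT-HSC and 4 CMP with at least 20 counts held 95.7% and 89.6% of the counts.

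The level of Rps4l in the LT-HSC came mostly from the first block. LT-HSC 1 to 16 stood at 141 CPM with 7 cells of at least 20 counts, and LT-HSC 17 to 34 at 33.7 CPM with 2 such cells, close to the 33.4 CPM of the 22 CMP with Xist. CMP 1 and 2 had no Rps4l count, where the floor of 3 counts corresponds to 2.33 CPM. Leaving out 1 cell moved the log2 ratio between 1.17 (without LT-HSC 32) and 1.92 (without CMP 18). None of the 100-base stretches at its 3' end occurred in another annotated gene (0%), and Rps4l made up 3.04% of the counts of the pair with Rps4x in the LT-HSC and 1.02% in the CMP.

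The make-up of the ribosomal protein counts also varied from cell to cell. The share of a member had a median coefficient of variation over cells of 0.275, where counting alone gave 0.0414. Differences between cells and noise of capture and amplification cannot be told apart in this spread. Among the most dispersed for their counts were Rps2, Rpl10a, Rps14 and Rps7. Rps2, at the entry of the messenger RNA channel, took 0.221%, 1.504% and 3.03% in the LT-HSC and 1.35%, 2.08% and 2.76% in the CMP, so the LT-HSC spread wider to the low side.

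The distance between the make-up of 1 cell and that of the pool of its gate, the percentage of ribosomal protein counts that would have to change gene, was 8.20%, 11.1% and 17.1% in the lowest, median and highest LT-HSC and 5.75%, 8.53% and 11.1% in the CMP. Counting error alone gave medians of 1.29% and 1.38%. The pools of the gates differed from each other by 7.83%, and the blocks of LT-HSC by 5.81%. Distances between pools average over cells and are not comparable with those of single cells.

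Members also differed in how closely they followed the summed share over the 58 cells. Spearman's rho between a member's share of all counts and that of the other members had a median of 0.412. Closest were Rpl13 at 0.807, Rpl37a at 0.746 and Rplp0 at 0.711. Rps27l, at −0.315, was lowest, and several low members followed little, with Rpl12 at −0.038, Rpl39 at −0.012 and Rpsa at −0.12. The gate difference of these members enters their rho.

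Ribosomal proteins with other symbols did not move alike. Fau, the precursor of Rps30, stood at 4392 CPM in the LT-HSC and 3480 CPM in the CMP, a log2 ratio of 0.34. Gnb2l1, which encodes Rack1 of the small subunit, stood at 1496 CPM in the LT-HSC and 2401 CPM in the CMP, a ratio of −0.68, which is 0.83 below the summed ratio and in the range of the lowest members.

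Other genes with TOP messenger RNAs rose and fell with the ribosomal proteins over the cells of a block but were level between the gates in the median cell. The 21 listed genes, mostly translation factors and including Fau and Gnb2l1, took 195, 273 and 342 of 10000 counts in the lowest, median and highest LT-HSC and 241, 274 and 373 in the CMP. The median was 293 in the first block of LT-HSC and 229 in the later block, the same order as for the ribosomal proteins. Within blocks their share followed the ribosomal protein share with r 0.567 over 16 cells, 0.616 over 18 and 0.577 over the 22 CMP with Xist. Their median log2 ratio between the gates was −0.32, with 0 of 21 at least 2-fold higher and 2 at least 2-fold lower. All genes with at least 20 counts gave 22.7% and 28.1%, and the 176 genes with at least 10000 counts outside the set gave 7.95% and 3.41%. Many of the 21 are of that depth, but the 2 lower ones are not. These were Hnrnpa1, with 451 counts, at 12.9 CPM in the LT-HSC and 45.7 CPM in the CMP and X-linked Eif2s3x, with 1323 counts, at 48.6 and 119 CPM. Against CMP 1 and 2 alone, the log2 ratio of Eif2s3x turned from −1.29 to 1.04.

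**Figure D4:**
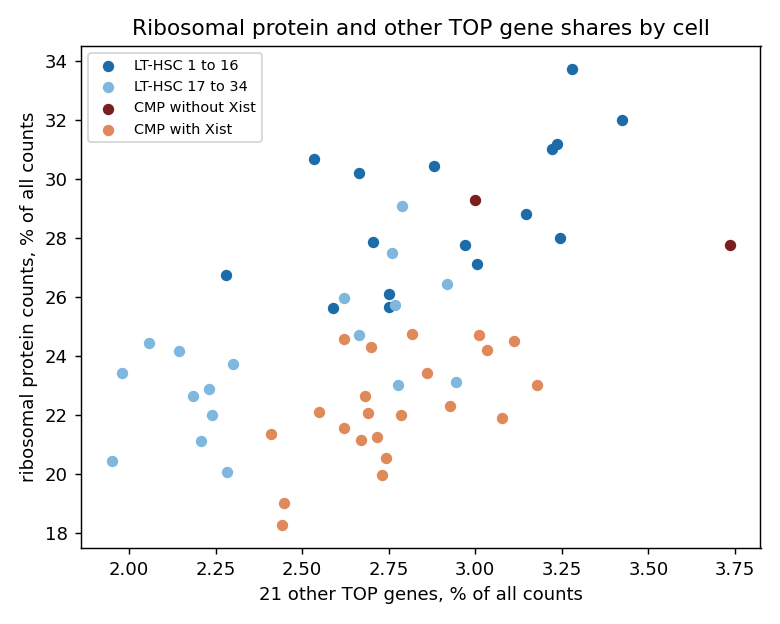
Share of all counts of the ribosomal protein genes (y axis, percent) against that of 21 other TOP genes (x axis, percent) in 58 cells, coloured by block. LT-HSC 1 to 16 lie high on the y axis, where the 22 CMP with Xist lie at 18.2% to 24.7%. On the x axis LT-HSC 1 to 16 overlap these CMP.

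Genes that build ribosomes were compared in the same way. Of 40 ribosome biogenesis genes, 0 were at least 2-fold higher and 10 at least 2-fold lower in the LT-HSC, against 22.7% and 28.1% of all genes with at least 20 counts, so the share that was lower is near that of all genes. Their median log2 ratio was −0.47 against −0.13 for all these genes. Together they took 58.4 of 10000 counts in the median LT-HSC and 66.5 in the median CMP. Within the blocks their share followed the ribosomal protein share with r −0.093, −0.16 and −0.31. The first block of LT-HSC had a median of 52.97 and the later block 60.5, the opposite order to their ribosomal protein shares.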

How the data were processed

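RNA of 58 singly sorted cells was counted by gene, 34 LT-HSC and 24 CMP. Per the labels' protocols, a modified Smart-seq2 method used oligo(dT) primers with cell barcodes and molecular identifiers, PCR amplification and capture of 3' ends. Among builds and tools, the submitters' processing notes list mm10, TopHat2 2.0.12, Seurat 2.0 and HTSeq without saying what each did. The authors deposited whole-number counts per gene symbol and cell, and whether these are molecules or reads is not given in the sources used here. If they are reads, the intervals are too narrow.

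All cells were kept and no doublet caller was run. For each gate, counts of its cells were added up and scaled to CPM, and 0.5 was added before log2 ratios. Intervals are exact binomial 95% intervals, covering counting error only. A gene's gate value has no replicate check. Python 3.11.15 with pandas 2.3.3, numpy 2.4.6, scipy 1.17.1 and matplotlib 3.10.9 was used, and DESeq2 1.42.0 in R 4.3.3 gave median-of-ratios factors only. The scripts were tested on simulated data.

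Members and lists were chosen with earlier results of these data known. Genes named were the 5 with most counts, the 8 lowest and 8 highest departures and 5 most dispersed among members with at least 200 counts, paralog pairs, stalk genes, anaemia genes, Rpl38, the 3 closest to the sum and members beside the minimum. Some genes that this rule takes are not reported here. Rpl7a, Rpl21 and named members of other lists were chosen after their values were seen. Sequences are from RefSeq promoters of GRCm38.p6, and 20 members had no entry there. Gene coordinates and 3' ends are from GENCODE M21, in 100-base stretches of the last 300 bases. Promoter windows are 1-based.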

Additional observations from a re-analysis of the deposited data

How the results depend on the processing

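Log2 ratios of LT-HSC to CMP are given for the summed share, the median member and the small to large subunit ratio in this order, which stood at 0.15, 0.086 and −0.062. They were 0.21, 0.17 and −0.046 with CPM averaged over cells, 0.32, 0.26 and −0.049 with median-of-ratios factors, 0.22, 0.19 and −0.033 with the 52 cells thinned to 97978 counts, and 0.22, 0.17 and −0.048 without CMP 1 and 2. Median-of-ratios factors moved the median of all genes by 0.060. With LT-HSC 1 to 16 they were 0.35, 0.27 and −0.10, and with LT-HSC 17 to 34 they were 0.036, −0.030 and −0.037. With cells without an Xist count they were −0.14, −0.17 and −0.11, so the first and second changed sign. Leaving out 1 cell gave 0.14 to 0.18, 0.073 to 0.13 and −0.074 to −0.050. The cause of these shifts was not tested.

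The count of members 2-fold higher in LT-HSC, 1, became 0 with LT-HSC 17 to 34. That for CMP, also 1, became 4 with a minimum of 1 count, 0 with a minimum of 100, 2 with cells without Xist and 2 with LT-HSC 17 to 34. In the cells without Xist, Rpl3l had no count in either pool, so its call there came only from the 0.5 added. The other member called there was Rpl12, at a log2 ratio of −1.01. The 2 departing 2-fold became 5 with a minimum of 1, 1 with a minimum of 100 and 1 without CMP 1 and 2. With the members kept as chosen, leaving out 1 cell gave counts of 1, 1 and 2, but without CMP 3 Rpl3l has 1 count and would not be a member. A total without Rn45s, leaving out shallow cells and adding 1 moved none of these 6 results. The table holds no mitochondrially encoded gene. The 8 lowest and 8 highest members stayed on their side of the sum in 10 settings, all of these except the minimum counts and single cells left out. They were chosen by departure on these same cells, so this is a description and no check. A departure does not depend on the total, so the total without Rn45s could not move it. No paired analysis was possible because cell numbers name cells and not animals, and no test was made.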

Other observations

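Genes that act around the ribosome were read as lists. Of 27 mTOR and Larp1 pathway genes with at least 20 counts, 2 were at least 2-fold higher in the LT-HSC and 10 at least 2-fold lower, against 22.7% and 28.1% of all genes with at least 20 counts. The median log2 ratio was −0.53. The 2 higher ones, named after their values were seen, were Rptor, the Raptor subunit of mTOR complex 1, at 23.4 CPM in the LT-HSC and 6.23 CPM in the CMP, and Mycn at 91.4 and 21.4 CPM. Mtor stood at 5.54 and 18.5 CPM and Larp1 at 38.5 and 72.2 CPM. The log2 ratio of the first to the later LT-HSC block was −3.62 for Rptor, −1.02 for Mtor, 1.90 for Mycn and 1.21 for Larp1. The Rptor level in the LT-HSC thus came mostly from the later block, and the first block lay below the CMP. Against CMP 1 and 2 alone, the log2 ratio of Mtor was 3.85, but this value rests on few or no counts in these 2 cells and on the 0.5 added.

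Of 14 p53 pathway genes with at least 20 counts, which answer to failed ribosome assembly among other stresses, 5 were at least 2-fold higher and 4 at least 2-fold lower, against the same 22.7% and 28.1% of all genes. Their median log2 ratio was −0.052, and against CMP 1 and 2 alone it was 1.32. The median of all genes with at least 20 counts also moved up, from −0.13 to 0.70. Cdkn1a stood at 15.8 CPM in the LT-HSC and 69.9 CPM in the CMP, a log2 ratio of −2.14. Against CMP 1 and 2 alone the ratio was 3.77, a value that rests on few counts in these 2 cells. Aen stood at 75.3 and 28.2 CPM. Trp53 itself stood at 202 and 214 CPM. The log2 ratio of the first to the later LT-HSC block was −2.98 for Aen, −1.31 for Cdkn1a and −0.50 for Trp53. The Aen level in the LT-HSC thus came mostly from the later block, and the first block lay below the CMP.

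Several members have 3' ends that also occur in other annotated genes. At least 1 such 100-base stretch was found in 44 of 79 members and none in 35. Of the 6 symbols below the minimum, Rps27 had 100% of its stretches in other genes, Rpl30 76.1%, Rpl34 42.8% and Rpl26 30.3%. Rpl10 and Rpl9 also had 100%, with 55159 and 49537 counts. Of the members with the lowest and highest departures, Rpl12, Rpl39, Rpsa, Rps21, Rps4l, Rps19, Rps7, Rpl37 and Rps14 had no shared stretch. For the other members at either end, reads of copies cannot be told apart from their own in the shared stretches.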
